A study of Mus musculus with 384 samples.

Results

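The cytochrome P450 genes of the mouse were followed here in the accessible chromatin of a breast tumor. Members were the protein-coding genes of the GENCODE vM1 annotation whose symbol is Cyp followed by a digit, and 98 of 22350 protein-coding genes on the chromosomes with windows met this rule. By the known work of the enzymes, 19 were placed as sterol, vitamin or steroid enzymes (7, 6 and 6 genes), 61 as drug-metabolising genes of families 1 to 3, 17 as fatty acid genes of family 4, and 1, Cyp20a1, as an orphan enzyme with no settled substrate.

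Single cells came from 1 tumor of the MMTV-PyMT model, in which a mammary tumor virus promoter drives a viral oncogene, dissected at 3 months of age. They were fixed, stained for EpCAM, a protein of epithelial cells, and CD45, a protein of leukocytes, and sorted into 4 plates of 96 wells for Pi-ATAC, which reads transposase-accessible DNA from cells whose protein stain was recorded. In the paper, the analysed cells were CD45+ and EpCAM+ in similar numbers, though CD45+ cells were the rarer among all stained cells. The pool is thus not the tumor's own mix of cells. All wells formed 1 group in the labels, with no control tissue, no replicate and no stain given per well, so epithelial cells and leukocytes could not be told apart, and a change in accessibility per cell cannot be told apart from a change in the number of cells that carry it. The processed data were 1 list of 50000 windows of 500 bp in mouse build mm9, called by the authors on the pooled cells and kept for their low q value. The list holds positions with no count or score, so its depth is unknown, a listed window is a yes or no reading, and an unlisted site was either closed or below the limit of that list.

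Cytochrome P450 enzymes carry a heme group and insert an oxygen atom into their substrate, with electrons handed over by a reductase. Some members each have 1 endogenous task, such as making cholesterol, bile acids, active vitamin D or steroid hormones, and these are mostly single genes. Others lie in tandem arrays of related copies, many of them best known from liver, where they oxidise drugs, pollutants and fatty acids.

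The promoters that were in the list ranged widely in CpG content, and a few from the upper and lower parts of that range are shown for that reason. Each line gives 200 bases of the plus strand of mm9, with each CpG dinucleotide in capitals. The first 4 lie at the centres of the promoter windows of Cyp51, Cyp46a1, Cyp39a1 and Cyp2r1, which held 20, 13, 14 and 18 CpG in the bases shown.

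Cyp51, chr5:4104549-4104748: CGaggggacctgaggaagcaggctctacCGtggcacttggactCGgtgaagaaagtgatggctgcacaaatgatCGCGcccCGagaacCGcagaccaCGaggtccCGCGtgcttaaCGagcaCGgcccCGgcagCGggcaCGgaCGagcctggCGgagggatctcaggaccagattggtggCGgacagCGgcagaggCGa
Cyp46a1, chr12:109572301-109572500: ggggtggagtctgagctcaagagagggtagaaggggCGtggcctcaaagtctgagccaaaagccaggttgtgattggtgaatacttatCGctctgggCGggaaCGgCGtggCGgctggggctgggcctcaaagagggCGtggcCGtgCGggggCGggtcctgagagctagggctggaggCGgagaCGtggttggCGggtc
Cyp39a1, chr17:43804083-43804282: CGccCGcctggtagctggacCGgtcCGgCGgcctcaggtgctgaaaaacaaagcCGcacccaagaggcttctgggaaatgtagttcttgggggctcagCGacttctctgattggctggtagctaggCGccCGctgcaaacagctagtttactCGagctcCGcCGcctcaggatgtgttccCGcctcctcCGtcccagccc
Cyp2r1, chr7:121706106-121706305: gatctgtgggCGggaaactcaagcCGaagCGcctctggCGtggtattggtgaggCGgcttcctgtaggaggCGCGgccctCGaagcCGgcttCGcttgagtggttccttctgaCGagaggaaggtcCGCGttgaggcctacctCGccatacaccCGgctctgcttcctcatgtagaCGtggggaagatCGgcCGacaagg

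The next sequences were taken in the same way from Cyp2j9, Cyp2t4 and Cyp4f16, of which the last is a fatty acid gene and the others are drug-metabolising, and held 3, 0 and 1 CpG. A promoter window was thus listed over sequence with many and with few CpG.

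Cyp2j9, chr4:96258258-96258457: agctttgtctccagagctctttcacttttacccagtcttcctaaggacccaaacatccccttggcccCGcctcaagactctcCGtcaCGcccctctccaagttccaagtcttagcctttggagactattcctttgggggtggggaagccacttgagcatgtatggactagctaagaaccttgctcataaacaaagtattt
Cyp2t4, chr7:27940327-27940526: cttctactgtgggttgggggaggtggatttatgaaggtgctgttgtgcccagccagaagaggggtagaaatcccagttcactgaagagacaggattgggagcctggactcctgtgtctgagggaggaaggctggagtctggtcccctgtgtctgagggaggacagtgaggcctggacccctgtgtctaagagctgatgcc
Cyp4f16, chr17:32673214-32673413: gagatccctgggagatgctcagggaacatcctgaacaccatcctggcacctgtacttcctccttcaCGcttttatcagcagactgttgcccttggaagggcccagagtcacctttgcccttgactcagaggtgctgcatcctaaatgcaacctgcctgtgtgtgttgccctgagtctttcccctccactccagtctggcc

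The last sequences surround the outermost start site of members with no promoter window, and are shown for the contrast. Cyp26a1, which clears retinoic acid, held 18 CpG in these bases. Cyp3a11, a liver drug enzyme, and Cyp19a1, the aromatase that makes estrogens, each held 2.

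Cyp26a1, chr19:37772198-37772397: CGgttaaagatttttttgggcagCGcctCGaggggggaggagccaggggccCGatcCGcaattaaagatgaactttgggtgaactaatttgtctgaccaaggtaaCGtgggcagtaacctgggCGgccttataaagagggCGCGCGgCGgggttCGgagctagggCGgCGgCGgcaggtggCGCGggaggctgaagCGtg
Cyp3a11, chr5:146691440-146691639: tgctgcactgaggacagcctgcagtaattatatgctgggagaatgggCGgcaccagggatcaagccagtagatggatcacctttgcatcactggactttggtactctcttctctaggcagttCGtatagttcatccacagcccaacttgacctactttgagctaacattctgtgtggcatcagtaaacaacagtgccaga
Cyp19a1, chr9:54115817-54116016: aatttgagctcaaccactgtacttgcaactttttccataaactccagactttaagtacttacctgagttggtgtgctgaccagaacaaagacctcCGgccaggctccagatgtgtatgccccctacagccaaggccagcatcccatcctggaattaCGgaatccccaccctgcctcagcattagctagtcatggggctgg

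A promoter window, centred within 1 kb of an annotated start site, was present at 13 of 98 Cyp genes (13.3%, exact binomial 95% interval 7.26 to 21.6%), against a background of 43.5% of all protein-coding genes. Counted by gene, the members' share was below that of all genes by more than its counting error. Tandem neighbours share windows and are not independent genes. With such copies counted as 1 locus the share was 27.0% (13.8 to 44.1%), an interval that includes the background, so the call was not kept. That background counts single genes, while a locus of several genes has more start sites at which a window can lie, so the units are unlike. All intervals cover counting error only. A window within 50 kb was present at 62 of 98 (63.3%, 52.9 to 72.8%), against a background of 84.6%, and 36 members had none. The median Cyp gene had 1 window within 50 kb and the highest had 11, while the median of all protein-coding genes was 3. At 67 members (68.4%) no window lay within 10 kb, beside 38.6% of all protein-coding genes.

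CpG content moved with these shares. The 500 bases around the most CpG-rich start site of each gene held a median of 5 CpG in the Cyp genes and 29 in all protein-coding genes. Among all genes the promoter share ranged from 2.23% in the lowest of 10 classes of CpG content to 71.6% in the ninth. Taking for each member the share of its own CpG class gave 16.2% for the 98 genes, which lies inside the interval of the measured 13.3%. Only 8 Cyp genes had 30 CpG or more, and 4 of them carried a promoter window (50.0%, 15.7 to 84.3%), beside 68.5% of all genes with that content. These were Cyp46a1 (59 CpG), Cyp20a1 (51), Cyp51 (43) and Cyp2r1 (41), while Cyp26a1 (45), Cyp2u1 (39), Cyp26b1 (37) and Cyp2s1 (30) had none. Of 69 Cyp genes with under 10 CpG, 2 had a promoter window (2.90%, 0.353 to 10.1%), beside 6.13% of all such genes. These were Cyp2j12 and Cyp4f16.

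**Figure D1:**
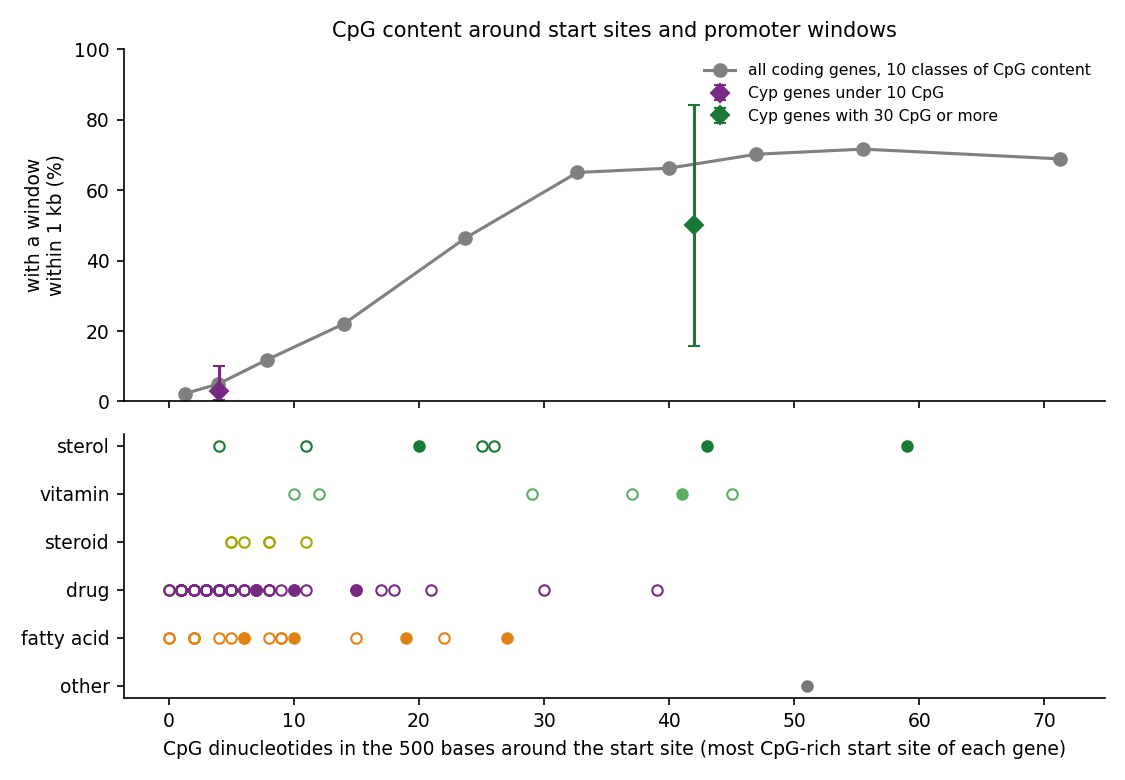
CpG content and promoter windows. The upper panel plots the percentage of genes with a window within 1 kb against the CpG count of the 500 bases around the start site, for all protein-coding genes in 10 classes at their mean CpG (grey) and for Cyp genes under 10 or with at least 30 CpG at their median CpG (diamonds, exact 95% intervals); the lower panel places each Cyp gene by role, filled where it had a promoter window. Most drug-metabolising genes sit below 10 CpG, and both Cyp intervals reach the line of all genes.

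The comparison named for this gene family sets the enzymes of sterols, vitamins and steroids beside the drug-metabolising families. A promoter window was found at 4 of 19 of the former (21.1%, 6.05 to 45.6%) and at 4 of 61 of the latter (6.56%, 1.82 to 15.9%). The difference was 14.5 percentage points with a Newcombe 95% interval of -1.02 to 37.1, which includes 0, so these counts do not separate the groups. Within 50 kb, 15 of 19 and 34 of 61 genes had a window (78.9% and 55.7%), a difference of 23.2 points (-1.98 to 40.9) that also includes 0. Summed over genes there were 63 windows around the former (mean 3.32, median 2) and 94 around the latter (mean 1.54, median 1). CpG content differed between the groups, with medians of 12 and 4, and the shares of all genes with the same CpG content were 35.4% and 9.68%. Both measured shares were below those values, and both intervals included them. The part of CpG content in the difference was not tested.

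**Figure D2:**
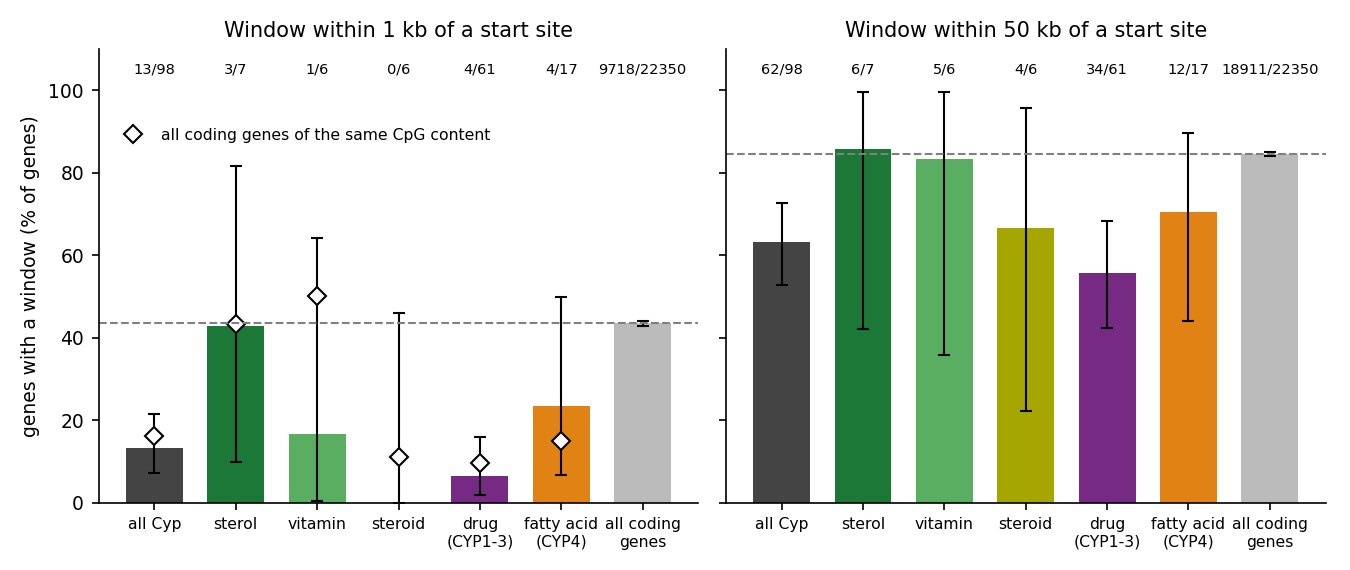
Share of Cyp genes with a window within 1 kb (left) or 50 kb (right) of a start site, by role, in percent of genes with exact binomial 95% intervals and the counts above each bar. The dashed line and grey bar give all protein-coding genes, and the diamonds the share of all protein-coding genes with the same CpG content. Sterol enzymes reach 3 of 7 at the promoter, steroid enzymes 0 of 6 and drug-metabolising genes 4 of 61.

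Sterol enzymes had a promoter window at 3 of 7 genes (42.9%, 9.90 to 81.6%), near the 43.4% of all genes with their CpG content and the background of all genes. Cyp51 removes a methyl group from lanosterol on the way to cholesterol. Its window on chromosome 5 (4104399 to 4104898) was centred 0.097 kb downstream of a start site, in exon sequence outside the coding part, and the only other window within 50 kb lay 44.8 kb downstream, nearest to Akap9. Cyp46a1, the cholesterol 24-hydroxylase best known from neurons, had 5 windows. Its promoter window on chromosome 12 (109572151 to 109572650) was centred 0.186 kb upstream, and a second summit of the same called peak lay 1.11 kb upstream. The remaining 3 were nearest to Hhipl1 or Eml1. Cyp39a1 hydroxylates 24-hydroxycholesterol, the product of Cyp46a1. Its window on chromosome 17 (43803933 to 43804432), 0.191 kb upstream, was also within 1 kb of a start site of Slc25a27, which was the nearer gene, and an intronic window followed at 3.35 kb.

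The other 4 sterol enzymes, which act in bile acid and oxysterol synthesis, had no promoter window. Cyp7a1, the rate-limiting enzyme of bile acid synthesis, had none within 50 kb, and the nearest was 61.0 kb away. Cyp8b1, the 12-alpha-hydroxylase of cholic acid synthesis, had 7, more than any other sterol enzyme. Of these, 3 were nearest to Cyp8b1 itself, at 1.66 kb downstream in its exon outside the coding part and at 3.03 and 9.44 kb upstream. Cyp7b1, which hydroxylates oxysterols, had 1 intronic window at 27.5 kb. Cyp27a1, the mitochondrial sterol 27-hydroxylase, had 1 window at 43.9 kb, nearest to Prkag3.

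Vitamin enzymes had a promoter window at 1 of 6 genes (16.7%, 0.421 to 64.1%) although the share of all genes with their CpG content was 50.3%, a value within that wide interval. Cyp2r1, which makes 25-hydroxyvitamin D, carried the window, on chromosome 7 (121705956 to 121706455), in an intron 0.270 kb downstream of a start site, and a second window lay 6.54 kb upstream. Cyp27b1, which makes active vitamin D, had 11 windows within 50 kb, with Cyp2t4 the highest count of all members, yet none of them was nearest to Cyp27b1. It had 8 other protein-coding genes within 50 kb, and 5 of its windows were at their promoters, namely Mettl1 with Fam119b, Cdk4 and Tspan31. Cyp24a1, which inactivates vitamin D, had 9 windows, of which 3 were at the promoter of Pfdn4 and 1, 6.24 kb upstream, was nearest to Cyp24a1.

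None of the 3 retinoic acid hydroxylases had a promoter window. Cyp26c1 had 2 windows, 9.10 and 18.4 kb upstream. The same windows lay 21.3 and 30.7 kb upstream of Cyp26a1, its neighbour on chromosome 19, which had no others within 50 kb. Cyp26b1 had none within 50 kb, and the nearest was 92.2 kb away. The start sites of Cyp26a1 and Cyp26b1, with 45 and 37 CpG, were thus CpG-dense without a listed window.

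**Figure D3:**
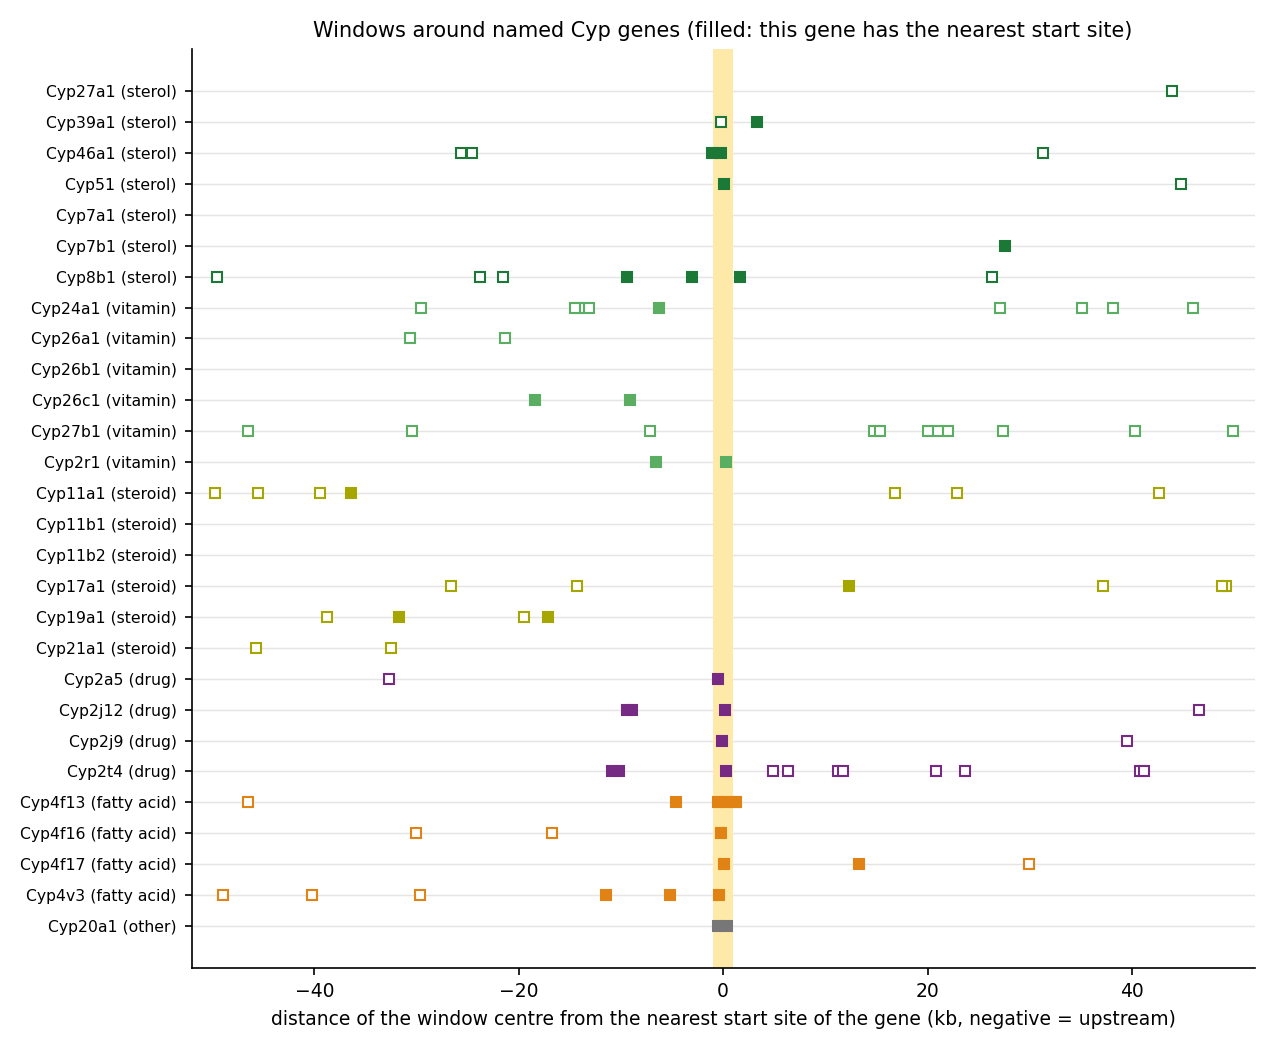
Positions of windows within 50 kb of the sterol, vitamin and steroid enzymes and of the other members with a promoter window. The x axis is the distance of the window centre from the nearest start site of the gene in kb, negative upstream, each square is 1 window, filled where that gene has the nearest start site, and the yellow band marks 1 kb to either side. The windows around Cyp27b1 are all open squares, and the rows of Cyp7a1, Cyp26b1, Cyp11b1 and Cyp11b2 are empty.

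Steroid enzymes had a promoter window at 0 of 6 genes, which allows a share of up to 45.9% (exact upper limit). Their start sites were CpG-poor (median 7), and the share of all genes with that content was 11.2%. Cyp11a1, which cleaves cholesterol to pregnenolone, had 7 windows between 16.8 and 49.7 kb away. Only 1 of them, 36.5 kb upstream, was nearest to it. Cyp17a1, of androgen synthesis, had 6 windows, with the nearest at 12.3 kb downstream. Cyp19a1, the aromatase, had 2 intronic windows nearest to it, 17.1 and 31.7 kb upstream of its closest start site, and 2 more nearest to Gldn. Cyp21a1, a corticoid 21-hydroxylase, had 2, both at promoters of other genes (Dom3z with Stk19, and Rdbp with Skiv2l). Cyp11b1 and Cyp11b2, which finish corticosterone and aldosterone, had none within 50 kb. The 50-base words around the start sites of Cyp21a1, Cyp11b1 and Cyp11b2 were 56.2%, 65.0% and 80.0% unique in the genome, and the part of this in their counts was not tested.

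Among the drug-metabolising genes the promoter windows were all in family 2 (4 of 49). Cyp2j9 and Cyp2j12 belong to the Cyp2j group of arachidonic acid epoxygenases on chromosome 4. The window of Cyp2j9 (96258108 to 96258607) was centred 0.089 kb upstream of its start site, and that of Cyp2j12 (95807363 to 95807862) 0.216 kb downstream in a coding exon, with 2 more at 8.95 and 9.41 kb upstream. Cyp2a5, the mouse coumarin 7-hydroxylase, had a window on chromosome 7 (27624750 to 27625249) 0.487 kb upstream of 1 of its 5 start sites, within an intron of its longer transcripts. Only 52.6% of the 50-base words around its start sites were unique in the genome, so reads there could be lost or shared with its copies. Cyp2t4 had a window in an intron 0.294 kb downstream of a start site (27940177 to 27940676 on chromosome 7). It had 11 windows within 50 kb, 3 of them nearest to it and 7 at the promoters of Egln2, Rab4b, Snrpa and BC024978.

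The 3 members closest outside the 1 kb limit were also of family 2. The nearest window lay 1.12 kb from the start of Cyp2u1, 1.20 kb from that of Cyp2s1 and 1.23 kb from that of Cyp2a22, and Cyp8b1 followed at 1.66 kb, while the farthest promoter window that was the nearest to its gene lay at 0.487 kb (Cyp2a5). With a limit of 2 kb, 9 of 61 drug-metabolising genes and 5 of 19 sterol, vitamin and steroid enzymes had a promoter window (14.8% and 26.3%), beside 47.0% of all protein-coding genes.

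Family 1, whose members oxidise aromatic compounds, had no promoter window at 3 genes. Cyp1a1 had 4 windows, all downstream from 11.1 kb on and all nearest to Edc3 or Clk3, with the first at the promoter of Edc3. Cyp1a2, known from liver, had 9, and 7 of these lay between 36.8 and 46.4 kb downstream, nearest to Csk. Cyp1b1 had 1, 26.4 kb downstream. Among other members with many windows, Cyp2w1 had 10, nearest mostly to Adap1 and Gpr146 with 1 nearest to Cyp2w1, and Cyp2f2, known from airway epithelium, had 7, the nearest of them at 22.9 kb and all nearest to Cyp2t4 or Egln2. Family 3, the Cyp3a genes, had a window within 50 kb at 1 of 9 genes (Cyp3a41b, 35.0 kb upstream), and the nearest window to Cyp3a11 was 289.2 kb away.

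Fatty acid genes of family 4 had a promoter window at 4 of 17 (23.5%, 6.81 to 49.9%), and the share of all genes with their CpG content was 14.9%, inside that interval. These genes hydroxylate the end of fatty acids and eicosanoids, and 3 of the 4 were Cyp4f genes of chromosome 17. Cyp4f13 had promoter windows 0.085 kb downstream (33083970 to 33084469) and 0.531 kb upstream, and 4 of its 6 windows within 50 kb lay inside the gene. Cyp4f16 had a window 0.189 kb upstream (32673064 to 32673563) and Cyp4f17 one 0.065 kb downstream (32643222 to 32643721). Cyp4v3, a fatty acid hydroxylase on chromosome 8, had 6 windows, all upstream, with the promoter window at 0.406 kb (46418726 to 46419225) and 2 further windows nearest to it at 5.18 and 11.4 kb. Cyp20a1, on chromosome 1, had 2 windows, 0.510 kb upstream (60399407 to 60399906) and 0.422 kb downstream (60400339 to 60400838), and no others within 50 kb.

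**Figure D4:**
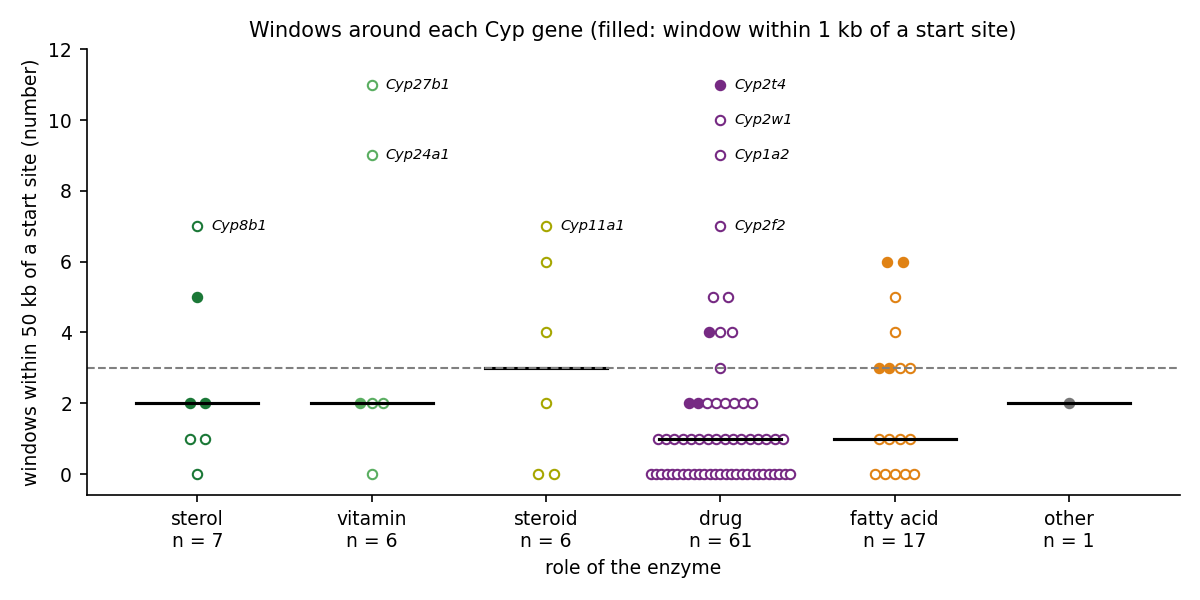
Windows counted within 50 kb of any start site (y axis) for each of the 98 Cyp genes, by role (x axis). Filled points had a window within 1 kb, black bars are medians of a role and the dashed line is the median of all protein-coding genes, 3. Cyp27b1 and Cyp2t4 have the highest count, 11, and the drug-metabolising genes gather at 0 and 1.

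Among pairs of a member and a window within 50 kb, 66 (33.7%) had the member as the nearest gene, beside 40.8% of such pairs over all protein-coding genes. Inside the member lay 26, 17 of them in introns. No such count was made over all genes, so it cannot be called few or many. Of the pairs away from the member's promoter, 48 (26.5%) were at the promoter of another protein-coding gene, beside 31.7% over all genes. Most such pairs had another gene as the nearest over all genes too. Counts rose with gene density. Members with no other protein-coding gene within 50 kb had a mean of 0.472 windows (36 genes), beside 2.70 for all such genes, and those with 6 to 10 neighbours had 7.67 (3 genes), beside 6.77.

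The tandem arrays differed from each other. The Cyp2c array on chromosome 19 holds 14 genes, enzymes of drugs and arachidonic acid, in 1180 kb with 0 windows (exact Poisson 95% interval 0 to 3.13 per Mb), where the rate of the whole chromosome, 20.6 per Mb, would give 24.3. The stretch without a window spanned 1294 kb, and 45 of the 49980 stretches between neighbouring windows were as long or longer, itself included. The Cyp3a array on chromosome 5 (8 genes, 819 kb) and the Cyp4a, Cyp4b1 and Cyp4x1 array on chromosome 4 (8 genes, 541 kb) each held 2 windows, or 2.44 (0.296 to 8.82) and 3.69 (0.447 to 13.3) per Mb, with intervals below the rates of their chromosomes, 17.3 and 16.9. In the Cyp2d array, 3 windows over 9 genes gave 7.08 per Mb (1.46 to 20.7), an interval that includes the chromosome's rate of 16.0. The Cyp2j array (8 genes, 9 windows) and a Cyp4f array (5 genes, 6 windows) held 14.1 and 25.5 per Mb, with chromosome rates of 16.9 and 20.3 inside their intervals. On chromosome 7, with a rate of 28.1 per Mb over its whole length, an array from Cyp2s1 to Cyp2a4 held 7 windows over 5 genes (13.7 per Mb, 5.49 to 28.1) with 0 promoter windows, and the array that ends in Cyp2t4 held 8 over 8 genes (16.2 per Mb, 7.00 to 31.9) with 2.

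**Figure D5:**
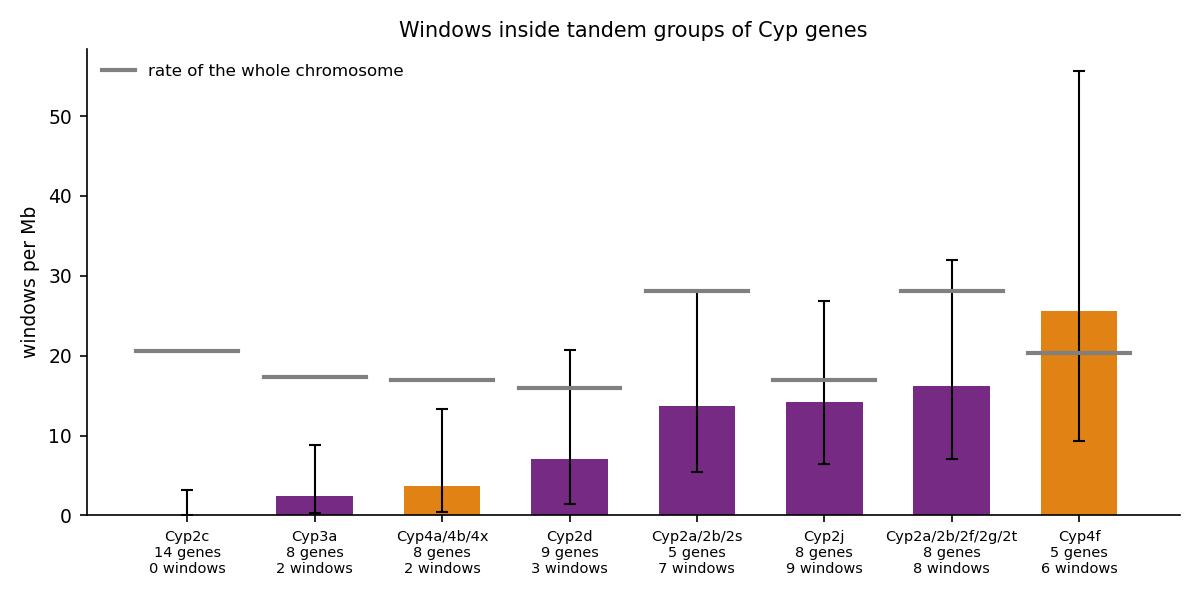
Windows per Mb inside arrays of at least 3 Cyp genes with at most 200 kb between neighbours, with exact Poisson 95% intervals; purple arrays hold drug-metabolising genes and orange arrays family 4, and grey lines give the rate of the whole chromosome. The Cyp2c array has 0 windows, and the Cyp3a and the Cyp4a, Cyp4b1 and Cyp4x1 arrays lie below their chromosomes.

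Near-identical copies can lose reads, since the authors worked from uniquely mapped reads. At 33 of 98 members under 90% of the 50-base words around start sites were unique, against 14.1% of all protein-coding genes. The mean was 82.1% in the Cyp2c array and 67.5% in the Cyp3a array, while it was 99.6% in the Cyp2j array. Over the 65 members with at least 90% unique words, a choice made after seeing the data, 11 had a promoter window (16.9%) and 52 a window within 50 kb (80.0%), beside 48.7% and 89.9% of all genes with that uniqueness. Counting tandem copies of 1 role as 1 locus left 37 loci, of which 10 had a promoter window (27.0%, 13.8 to 44.1%) and 33 a window within 50 kb (89.2%, lower limit 74.6%). The first interval includes the 43.5% of all genes, and the second value lies above their 84.6%, within its counting error. With this choice the lower shares were thus not kept. However, those backgrounds count single genes, while a locus of several genes spans more start sites, so the units are unlike. The order of the groups in windows within 50 kb turned with this choice, to a mean of 3.59 per locus over 17 loci of sterol, vitamin and steroid enzymes and 5.36 over 14 drug-metabolising loci, since an array reaches over more sequence than 1 gene. Over genes with at least 90% unique words the means were 3.81 (16 genes) and 2.39 (36 genes). The part of copy number in the lower share was not tested further.

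Chromosomes 7, 8 and 9 had more windows per Mb than the others, and an estimated 41.5 to 51.8% of the peaks called there were kept in the list, against 23.6 to 26.5% on the other autosomes. The number of called peaks was estimated from the highest peak numbers kept on successive chromosomes. Chromosomes 7, 8 and 9 carry 15, 2 and 5 members, of which Cyp2r1, Cyp2a5, Cyp2t4 and Cyp4v3 had a promoter window. Of the members with at least 7 windows within 50 kb, Cyp2t4 (11), Cyp1a2 (9), Cyp11a1, Cyp8b1 and Cyp2f2 (7 each) lie there. Cyp27b1 (11), Cyp2w1 (10) and Cyp24a1 (9) lie on other chromosomes. The part of the kept share of peaks in these counts was not tested. Without chromosomes 7, 8, 9 and X, 9 of 76 members had a promoter window (11.8%), beside 42.8% of all protein-coding genes on the chromosomes left.

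Sequence words were searched on both strands of the whole windows, and a match is a description of the letters only. The nuclear receptor word AGGTCA was in 4 of the 15 promoter windows of members (26.7%), beside 20.9% of all 12496 promoter windows, and in 43 of the windows away from any promoter but within 50 kb of a member (37.7%), beside 30.3% of 37504. The AP-1 word TGACTCA was in 1 of 15 promoter windows (Cyp4f16), beside 7.47%, and in 16 of the others (14.0%), beside 15.6%. The dioxin-response word TNGCGTG, of the Ahr receptor that controls family 1 in other settings, was in 2 of 15, Cyp2r1 among them, beside 12.6%, and in 4 of the others (3.51%), beside 5.26%. The hypoxia-response word TACGTG, which ends in the same letters CGTG as the dioxin-response word, was in 1 of 15 (6.67%), beside 6.92%, and in 5 of the others (4.39%), beside 5.39%. The window 6.24 kb upstream of Cyp24a1 held the AP-1, dioxin-response and hypoxia-response words, and the one 29.5 kb upstream held the AP-1, dioxin-response, AGGTCA and Ets (CCGGAAGT) words. The Ets word was in 0 of 15 promoter windows of members, beside 7.45%, and in 1 of the others (0.877%), beside 0.840%. The PU.1 word GAGGAAGT was in 2 of 15, Cyp4f16 among them, beside 4.14%, and in 5 of the others (4.39%), beside 5.23%. The sterol-response word TCACNCCAC was in 0 of 15, beside 1.91%, and in 2 of the others (1.75%), beside 2.05%. The E-box CACGTG was in 1 of 15, beside 13.3%, and in 8 of the others (7.02%), beside 8.15%. The cyclic AMP response word TGACGTCA was in 0 of 15, beside 3.46%, and in 1 of the others (0.877%), beside 0.680%. The RUNX word TGTGGTTT was in 1 of 15, beside 2.21%, and in 6 of the others (5.26%), beside 4.72%. Promoter windows of members held a median of 12 CpG, beside 32 in all promoter windows, and those away from promoters held 6 in both.

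The genes that work with these enzymes more often had a promoter window than the members, but their CpG content was unlike that of the members. Among 11 genes listed as redox partners of P450 enzymes, 9 had a promoter window (81.8%, 48.2 to 97.7%). They included Por, the reductase of the microsomal enzymes, with 3 promoter windows, and Fdxr, the reductase of the mitochondrial ones, with 1. The others were Cyb5, Cyb5b, Cyb5r1, Cyb5r3, Fdx1l, Pgrmc1 and Pgrmc2, while Fdx1 and Cyb5r2 had none. Of 22 cholesterol synthesis genes matched to the annotation 19 had one (86.4%, 65.1 to 97.1%), and of 20 receptors that regulate Cyp genes 12 (60.0%, 36.1 to 80.9%). The share of all genes with the same CpG content was 62.9%, 63.9% and 48.4% for these lists, beside 16.2% for the members. The intervals of the redox partners and of the receptors include their values. That of the cholesterol synthesis genes lies just above its value, in a list chosen with earlier results known. Of the P450 enzymes with other symbols, Tbxas1, thromboxane synthase, had one and Ptgis, prostacyclin synthase, had none.

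Markers of the labelled cells and of tissues known for P450 enzymes were read in the same way. Of 8 luminal epithelial markers 4 had a promoter window (Cdh1, Cldn4, Elf3 and Muc1), and of 8 leukocyte markers 6 (Coro1a, Dock2, Fli1, Ikzf1, Laptm5 and Runx3). The shares of all genes with the same CpG content were 37.6% and 37.9%. The genes of the stained proteins, Epcam and Ptprc, had none within 1 kb but 9 and 4 within 50 kb. Hepatocyte markers had one at 2 of 11 (Apoa1 and Pck1), steroidogenic markers at 1 of 6 (Lhcgr) and adipocyte markers at 1 of 6 (Lipe), and the shares of all genes with the same CpG content were 14.6%, 20.1% and 25.8%. Alb, the main secreted protein of liver, had none within 50 kb.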

How the data were processed

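The deposited list came from reads that, per the labels and methods, had been adapter-trimmed and aligned to mm9 by the authors (Bowtie2 2.1.0), then freed of duplicates (Picard 1.79), poor alignments and mitochondrial reads. MACS2 (version not given in the sources used here) called summits on the pooled cells with a q limit of 0.05, and 500 bp windows around the 50000 summits of lowest q were deposited, as positions without counts.

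Windows were placed by their centre in mm9 against the GENCODE vM1 start sites, counting positions from 1. CpG content and the uniqueness of 50-base words were read from 500 bases around each start site of the NCBIM37 genome. Tandem arrays were runs of members with at most 200 kb between neighbours. Intervals are exact binomial, exact Poisson or Newcombe at 95%. No test was run, since there is 1 pooled list without replicates. Python 3.11.15 with numpy 2.4.6, scipy 1.17.1, numba 0.67.0 and matplotlib 3.10.9 was used, and the counting functions were tested on simulated data. The members, roles, partner and marker lists and words were chosen with earlier results of these data known. Named were all sterol, vitamin and steroid enzymes, other members with a promoter window, the 10 members with most windows within 50 kb, partner genes with a promoter window in lists of up to 12 genes, and genes that share a promoter window with a member. The members near the limit, Cyp1a1, Cyp1b1, Cyp3a41b, Cyp3a11, Fdx1, Cyb5r2 and the nearest neighbours of windows were named after their values were seen. The result of 1 partner list is not reported here.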

Additional observations from a re-analysis of the deposited data

How the results depend on the processing

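In all, 73 values were recomputed under other settings, and 58 stayed within the interval of the reported share or within 1.5 times the reported mean. The difference in promoter share between the sterol, vitamin and steroid enzymes and the drug-metabolising families lay between 9.23 and 16.7 points. It stayed positive, but its interval included 0 at every setting, so no setting separated the groups. The promoter shares of these groups lay between 15.8 and 26.3% and between 4.44 and 14.8%. With tandem copies as 1 locus, the promoter share of Cyp genes was 27.0% (13.8 to 44.1%), no longer apart from the 43.5% of all genes. The share within 50 kb was then 89.2%, above the 84.6% of all genes. Both shares of all genes count single genes, and a locus of several genes has more start sites, so the units are unlike. The share within 50 kb was 31.6% at a reach of 10 kb and 76.5% at 100 kb, beside 61.4% and 91.9% of all protein-coding genes. When a window counted only for its nearest gene it was 42.9%, beside 63.6%. Over genes with at least 90% unique words it was 80.0%, beside 89.9%. By construction the mean number of windows around a sterol, vitamin or steroid enzyme fell to 0.684 at 10 kb and rose to 6.74 at 100 kb. It was 0.895 when counted for the nearest gene only. The means of all protein-coding genes at these settings were 1.36, 7.35 and 1.68. For the drug-metabolising families it was 0.295, 3.34 and 0.492, 0.911 without chromosomes 7, 8, 9 and X, 2.39 over genes with at least 90% unique words and 5.36 per locus with tandem copies as 1 locus, where it passed the 3.59 of the other group. The runs by chromosome, by uniqueness and without the 2 members named as pseudogenes were added after seeing the data. A stricter list of the 25000 strongest windows was not run, because the list carries no score. No paired analysis was possible because all wells form 1 group and 1 pooled list. The unknown depth means that an unlisted site cannot be read as closed.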
